A study of Mus musculus with 12 samples.

Results

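Immediate early genes (IEGs) were followed through the postnatal maturation of cerebellar astrocytes. The set comprised 10 genes chosen by symbol, namely Fos, Fosb, Jun, Junb, Egr1, Egr2, Ier2, Atf3, Nr4a1 and Btg2, out of 24421 entries in the deposited expression table, and each of the 10 was found there and passed the filter on low values. The cells came from the cerebellum of Aldh1l1-GFP mice, in which the Aldh1l1 promoter drives green fluorescent protein (GFP) in astrocytes, and were dissociated and sorted as GFP+ cells at postnatal day (P) 1, P7, P14 and P28, with 3 libraries at each time point and 12 in all. All groups shared the reporter, the C57/BL6J background, the dissociation and the sort, and mice of both sexes were used. There was no undissociated or unsorted sample among the 12 libraries, so the level in the tissue before dissociation cannot be told apart from what dissociation and sorting added. The sources used here do not say whether the 3 libraries of a time point came from separate animals or from pools, so p-values measure the spread between these libraries.

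IEGs are transcribed within minutes of a stimulus from promoters that already hold their activators, without new protein synthesis, and their transcripts are short-lived. Most encode transcription factors that pass the signal on. FOS and JUN family proteins pair to form AP-1, EGR proteins are zinc finger factors, and NR4A1 is an orphan nuclear receptor. In brain tissue the genes respond to growth factors, neuronal activity and injury, and enzymatic dissociation and cell sorting are known to induce them as well.

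Promoter windows are shown for 4 genes with different courses over development: Fos, which had fallen by P7, Egr2, which fell most, Nr4a1, which was lower at P28 than at each other time point, and Jun, which was not called in any comparison. Each is the 250 bases before a RefSeq start (GRCm38.p6), printed 5′ to 3′ on the sense strand. Capitals mark the core of the cAMP response element (TGACG, or CGTCA when it lies on the other strand), the CArG box bound by serum response factor, the EGR motif GCGNGGGCG and the TATA motif TATAAA.
Fos, chr12:85473640-85473889, plus strand: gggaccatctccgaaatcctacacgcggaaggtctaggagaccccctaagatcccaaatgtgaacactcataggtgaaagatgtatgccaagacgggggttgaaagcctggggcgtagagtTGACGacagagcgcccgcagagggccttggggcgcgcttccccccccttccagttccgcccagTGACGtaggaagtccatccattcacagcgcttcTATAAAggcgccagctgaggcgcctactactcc
Egr2, chr10:67537619-67537868, plus strand: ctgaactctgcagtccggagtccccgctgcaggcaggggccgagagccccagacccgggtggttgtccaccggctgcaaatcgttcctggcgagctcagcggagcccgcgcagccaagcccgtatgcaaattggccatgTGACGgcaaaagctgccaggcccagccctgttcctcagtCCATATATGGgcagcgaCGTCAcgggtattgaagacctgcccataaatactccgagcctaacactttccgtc
Nr4a1, chr15:101266596-101266845, plus strand: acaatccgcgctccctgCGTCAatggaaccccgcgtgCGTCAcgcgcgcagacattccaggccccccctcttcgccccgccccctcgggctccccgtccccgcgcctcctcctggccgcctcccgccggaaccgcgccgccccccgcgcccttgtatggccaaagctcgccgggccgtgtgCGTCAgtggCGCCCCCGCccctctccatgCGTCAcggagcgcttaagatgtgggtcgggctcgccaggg
Jun, chr4:95052223-95052472, minus strand: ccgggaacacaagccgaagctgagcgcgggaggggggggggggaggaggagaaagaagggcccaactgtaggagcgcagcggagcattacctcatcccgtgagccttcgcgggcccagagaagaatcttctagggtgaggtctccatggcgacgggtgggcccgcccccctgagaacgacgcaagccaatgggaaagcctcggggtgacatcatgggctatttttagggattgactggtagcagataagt
In the GENCODE M21 annotation the Fos and Jun windows lay just outside the gene, and the Egr2 and Nr4a1 windows lay inside the gene and outside its exons. Egr2 has 5 RefSeq starts, and the window shown is the first of 3 that hold the same CArG box, while 1 other window holds a different one. A RefSeq window was at hand for 8 of the 10 genes, and not for Egr1 and Ier2. TGACG, on either strand, was in a window of 7 of these 8 genes, all except Jun, against 19.8% of 27025 genes with a window. The full element TGACGTCA, which contains TGACG once on each strand, was in 1, Btg2, against 1.77% of all genes. GCGNGGGCG was in 3 (Btg2, Fosb and Nr4a1) against 5.33%, and TATAAA in 1 (Fos) against 14.3%. A CArG box was in 1 (Egr2) against 1.62%. The GC box GGGCGG, left in lower case, was in 7 against 35.4%, and it can overlap the EGR motif. The AP-1 motif TGANTCA was in none of the 8 windows, against 7.82% of genes. These are matches of letters in a short window and say nothing of binding.

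The 10 genes together took a share of the reads that was lower at each later time point. Their summed level was 6736, 6567 and 5469 RPM (reads per 1000000 reads on genes in a library) at P1, 4122, 3019 and 3795 at P7, 2695, 1906 and 2801 at P14, and 1089, 1152 and 1666 at P28. The time points did not overlap in this sum, with means of 6257 ± 688, 3645 ± 567, 2467 ± 489 and 1303 ± 317 (SD, n = 3 at each time point). Summed as deposited, with reads divided by a size factor for each library, P7 (25283 to 35699) overlapped P14 (19875 to 28805). On that scale P14 also overlapped P28 (12679 to 21039), and only P1 (47534 to 61058) stood apart. Egr1 made up most of it early, with 66.5% ± 0.97 of the reads on the 10 genes at P1 and 41.1% ± 2.05 at P28 (SD, n = 3). Because these are bulk libraries, fewer cells expressing a gene and less RNA per cell cannot be told apart. The 9 astrocyte markers took 5844 to 7293 RPM at P1 and 3184 to 5764 at P7, then 14355 to 18032 at P14, and by P28 they took 29247 to 31589. At P14 the oligodendrocyte lineage markers summed higher, to 28988 to 34509 RPM. Without an unsorted library these sums cannot tell how pure the sorted cells were.

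**Figure D1:**
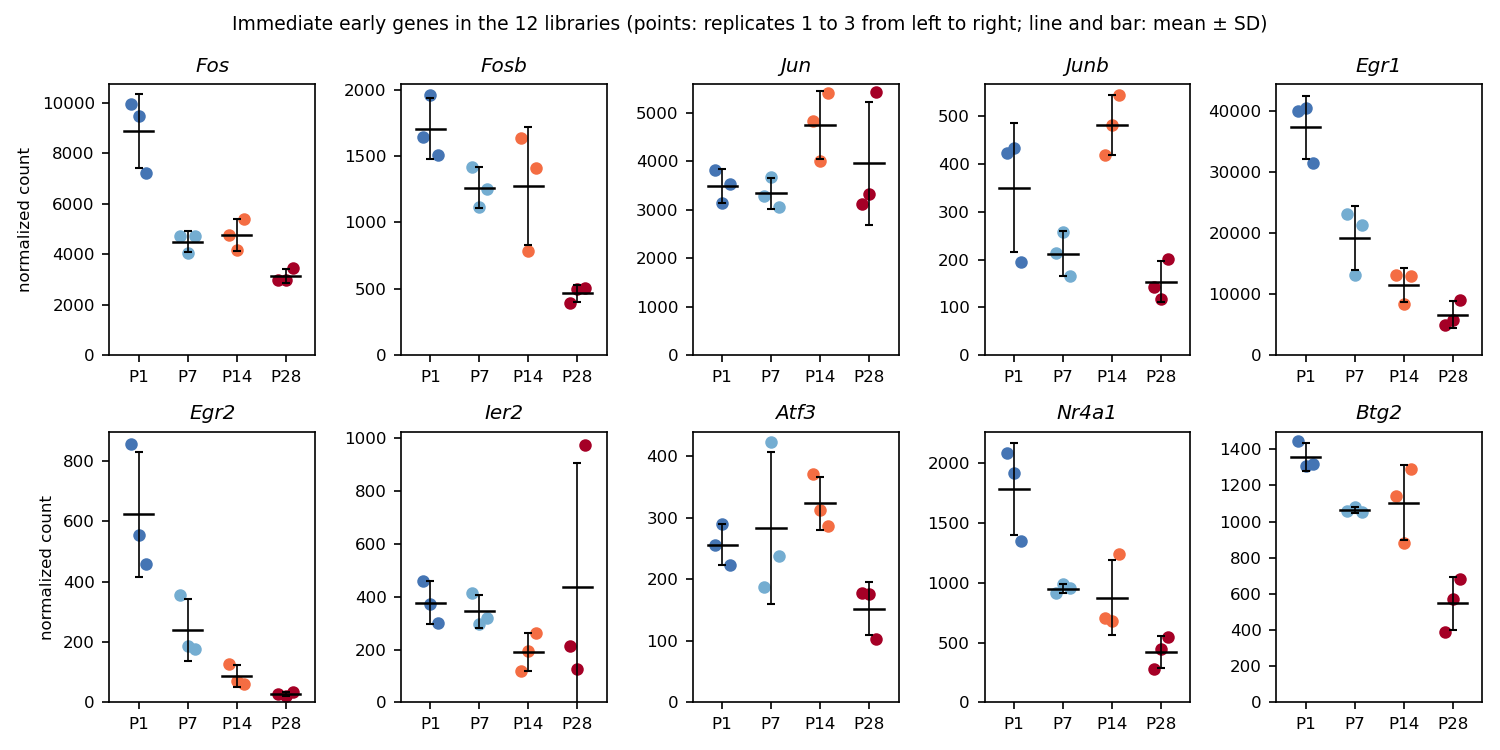
Normalized count (vertical axis, linear from 0) of each of the 10 immediate early genes in the 12 libraries at P1, P7, P14 and P28, with points for libraries, lines for means and bars for SD (n = 3, cut off at 0 for Ier2 at P28). Fos, Fosb, Egr1, Egr2, Nr4a1 and Btg2 had their highest mean at P1, Jun, Junb and Atf3 at P14, and the P28 mean of Ier2 rested on 1 library at 975.

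Fos, the inducible partner of JUN in AP-1, fell 1.96-fold in the first week and again after P14. Its normalized counts, meaning reads divided by a size factor for each library, were 9962, 9491 and 7211 at P1, 4735, 4044 and 4742 at P7, 4756, 4155 and 5399 at P14, and 2972, 2977 and 3451 at P28. The P1 libraries were all above the others, P7 and P14 overlapped, and the P28 libraries were all below the rest. Fos was lower at P7 than at P1 (log2 fold change −0.97 ± 0.16 SE, adjusted p = 0.00179 in limma) and fell further between P14 and P28 (−0.60 ± 0.16, adjusted p = 0.0221), while for P14 and P7 the 95% interval of the change was −0.26 to 0.42. Without P14 replicate 1 or P14 replicate 3 the last fall was −0.60 and −0.51 and no longer passed (adjusted p = 0.0614 and 0.0909). From P1 to P28 the level fell 2.82-fold (−1.49 ± 0.16, adjusted p = 7.59e-06). The gene lies at chr12:85473890-85477273 on the plus strand.

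Fosb, a FOS paralog whose splice form ΔFosB is long-lived, dropped after P14. Normalized counts of Fosb were 1647, 1961 and 1511 at P1, 1420.4, 1115 and 1253 at P7, 1639, 782 and 1409.6 at P14, and 392, 501 and 506 at P28. The P28 libraries were below all the others, and at P14 replicate 2 stood well below replicates 1 and 3. The P28 versus P14 change was −1.39 ± 0.25 (adjusted p = 0.00289), a 2.63-fold fall, and the P28 versus P1 change was −1.87 ± 0.25 (adjusted p = 5.28e-05). P7 did not overlap P1, but the change of −0.43 had an adjusted p of 0.394. Splice forms were not separated in the deposited values.

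Jun, the partner of FOS, did not follow this course and was above Junb per kb of exon in every library. In normalized counts Jun stood at 3825, 3132 and 3527 at P1, 3275, 3684 and 3051 at P7, 4822, 4013 and 5402 at P14, and 3108, 3327 and 5423 at P28. Each P14 library was above each P1 and P7 library, and the P28 libraries spread over nearly the whole range, with replicate 3 as high as the highest P14 library. No comparison of Jun passed the test, with a P14 versus P7 change of 0.50 ± 0.20 (adjusted p = 0.0909) and a P28 versus P1 change of 0.14 (95% interval −0.29 to 0.56, adjusted p = 0.626). Without P28 replicate 3 the P14 versus P7 rise passed (adjusted p = 0.0249), as did the fall of −0.55 from P14 to P28 (adjusted p = 0.0416), and the P28 versus P1 change became −0.11. Scaling the libraries by their total reads instead of the size factors turned that change to −0.30, and under that scaling the median of all genes tested moved from −0.24 to −0.67. Jun (chr4:95049034-95052222, minus strand, 1 exon) shares 232 exon bases with the antisense gene Junos, and whether the counting used strand is not given in the sources used here, so reads of the pair cannot be told apart.

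Junb, which forms AP-1 dimers that restrain those of JUN at some targets, rose from P7 to P14 and fell after it. The 12 libraries held Junb at normalized counts of 423, 434 and 195 at P1, 215, 258 and 165 at P7, 419, 481 and 545 at P14, and 142, 118 and 201 at P28. The P14 libraries were above those of P7 and P28, whereas P1 was split, with replicate 3 far below replicates 1 and 2. P14 overlapped P1, and their change of 0.54 ± 0.35 had an adjusted p of 0.32. Junb rose 2.28-fold from P7 to P14 (1.19 ± 0.35, adjusted p = 0.0256) and fell 3.18-fold from P14 to P28 (−1.67 ± 0.35, adjusted p = 0.00734). The rise did not pass under scaling by total reads (0.94, adjusted p = 0.0629), nor without P7 replicate 1, P7 replicate 3, P14 replicate 2 or P14 replicate 3 (adjusted p = 0.0706, 0.116, 0.0714 and 0.0853). The lower level at P28 than at P1 (−1.13 ± 0.35, adjusted p = 0.0222) was lost without P1 replicate 1, P1 replicate 2 or P28 replicate 2 (adjusted p = 0.1, 0.0926 and 0.0577). Junb (chr8:84974484-84978718, minus strand) shares 173 exon bases with Prdx2 on the opposite strand, so its reads are uncertain to that extent.

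Atf3, a stress-induced factor that pairs with JUN proteins, was lowest at P28. For Atf3 the normalized counts were 257, 290.1 and 223 at P1, 188, 424 and 239 at P7, 372, 312 and 287 at P14, and 178, 177 and 103 at P28. The P28 libraries were below all the others, and at P7 replicate 2 was far above replicates 1 and 3. The fall from P14 to P28 just passed the test (−1.11 ± 0.35, adjusted p = 0.0458), and the P28 versus P1 change did not (−0.78 ± 0.35, adjusted p = 0.0963), except under scaling by total reads (−1.21, adjusted p = 0.0149). The first of these no longer passed with edgeR, with no filter on low values, or without any one of P1 replicates 1 to 3, P7 replicates 1 and 3, P14 replicates 1 to 3 and P28 replicate 3, among which the lowest adjusted p was 0.0519 and the highest 0.136.

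Among the AP-1 genes the balance moved from Fos towards Jun. Lengths were the merged exons of all annotated transcripts, while reads were counted on UCSC transcripts, so levels between genes, here and below, depend on that choice. The fold change of a ratio between ages does not, because the lengths are fixed. Per kb of exon, Jun was at 0.28, 0.24 and 0.36 of Fos in the P1 libraries, 0.51, 0.67 and 0.47 at P7, 0.75, 0.71 and 0.74 at P14, and 0.77, 0.82 and 1.16 at P28. No time point overlapped the one before it, and in 1 P28 library Jun was above Fos. Each step had an exact two-sided permutation p of 0.1, the smallest that 3 libraries against 3 allow, so the design cannot bring these below 0.05, and over the 36 differences computed, 4 for each of 9 ratios and shares, the Benjamini-Hochberg adjusted value was 0.157. Of the reads per kb on Fos, Fosb, Jun and Junb together, Fos took 71.1% ± 2.60, 58.8% ± 4.02, 51.7% ± 0.89 and 49.8% ± 5.08 at the 4 ages in order, and Jun took 20.9% ± 3.43, 32.2% ± 3.78, 37.8% ± 0.33 and 45.0% ± 5.23 (SD, n = 3). Fosb and Junb together stayed a small part, with Junb at 5.38% ± 0.82 at P14 and at 2.44% to 2.84% on average at the other time points.

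**Figure D2:**
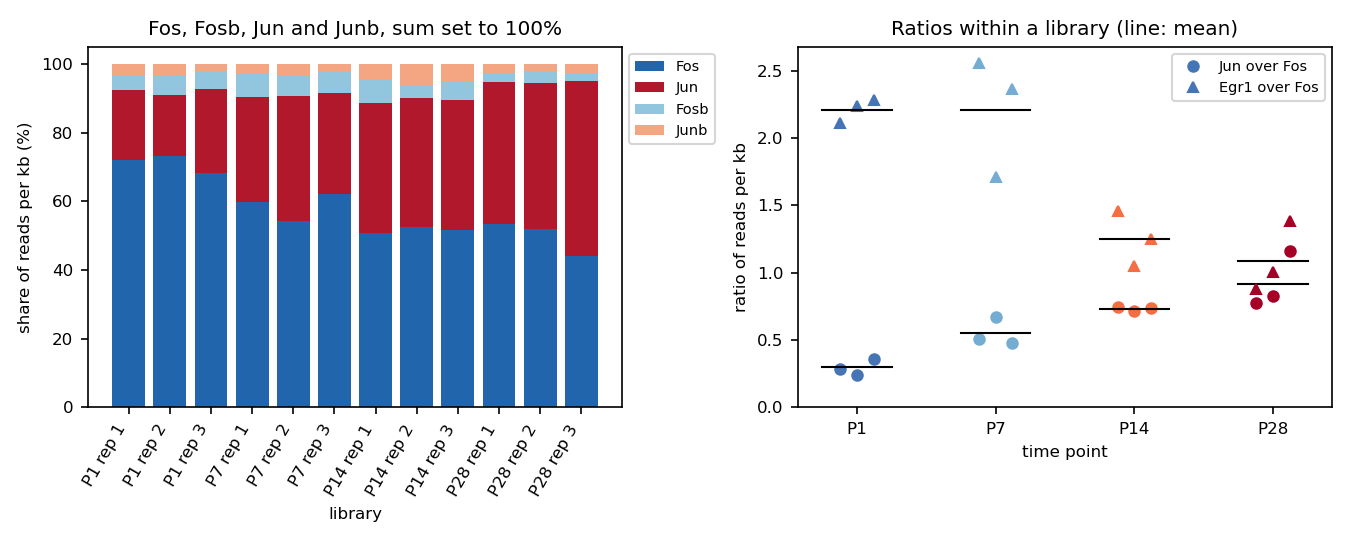
Left, share (%) of reads per kb of exon on Fos, Jun, Fosb and Junb in each of the 12 libraries, stacked to 100%. Right, ratios per kb of Jun over Fos (circles) and Egr1 over Fos (triangles) in each library by time point, with lines for means of 3: Jun over Fos went from 0.30 at P1 to 0.92 at P28, and Egr1 over Fos from 2.21 to 1.09.

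Egr1, a zinc finger factor induced through serum response factor, had the most reads of the 10 genes in every library. Egr1 had normalized counts of 40101, 40494 and 31441 at P1, 23127, 13204 and 21376 at P7, 13221, 8309 and 12911 at P14, and 4982, 5691 and 9119 at P28. By reads it ranked 8 or 9 among all genes at P1, between 13 and 22 at P7, between 45 and 103 at P14, and between 145 and 258 by P28. The ranges of P7 and P14 just met, at 13204 and 13221, those of P14 and P28 overlapped, and the P1 libraries were above all others. Egr1 was lower at P7 than at P1 (−0.99 ± 0.26, adjusted p = 0.0307) and at P28 than at P14 (−0.82 ± 0.26, adjusted p = 0.0479), and P28 was 5.82-fold below P1 (−2.54 ± 0.26, adjusted p = 5.08e-06). Between P7 and P14 the change missed the threshold (−0.73 ± 0.26, adjusted p = 0.0586), but it passed under scaling by total reads (−0.99, adjusted p = 0.0081), with DESeq2 (adjusted p = 0.049), with a minimum of 10 in every library (0.0468), in a fit of those ages alone (0.0467), with the replicate number as a block (0.0464), and without P7 replicate 2 (0.0162) or P28 replicate 3 (0.0308).

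For Egr1 the P7 versus P1 call was lost without P1 replicate 1, P1 replicate 2, P7 replicate 2 or P7 replicate 3 (adjusted p = 0.115, 0.111, 0.139 and 0.0567). The P28 versus P14 call was lost with edgeR, with no filter, and without any one of P1 replicates 1 to 3, P7 replicates 1 and 3, P14 replicates 1 and 3 and P28 replicates 1 and 2 (adjusted p = 0.0546 to 0.160). Leaving out any 1 library kept the P28 versus P1 change between −2.80 and −2.36. Per kb of exon Egr1 stood at 2.21 ± 0.09 times Fos at P1 and 2.21 ± 0.44 times at P7, then at 1.25 ± 0.20 and 1.09 ± 0.26 times at P14 and P28 (SD, n = 3). P7 and P14 did not overlap in this ratio (exact permutation p = 0.1, adjusted 0.157), and P14 and P28 did. In P28 replicate 1 the ratio was 0.88, with merged exon lengths of 4484 bases for Egr1 and 2352 for Fos. Whether Egr1 was below Fos there depends on these lengths. Egr1 lies on chromosome 18 (34859823 to 34864984, plus strand).

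Egr2, known for its role in the myelination program of Schwann cells and as an activity-induced gene in the brain, had the largest change of the 10. Normalized counts of Egr2 were 855, 556 and 457 at P1, 357, 186 and 178 at P7, 128, 70.9 and 60.8 at P14, and 27.8, 21.2 and 35.2 at P28. Every library of a time point was below every library of the time point before, and in reads the P28 libraries held only 19, 18 and 26. Egr2 was lower at P14 than at P7 (−1.46 ± 0.45, adjusted p = 0.0306) and at P28 than at P14 (−1.54 ± 0.45, adjusted p = 0.0326), while P7 versus P1 was −1.40 ± 0.45 (adjusted p = 0.0759). From P1 to P28 it fell 21.1-fold (−4.40 ± 0.45, adjusted p = 4.79e-06). The P14 versus P7 call did not hold without any one of P7 replicates 1 to 3 and P14 replicates 2 and 3 (adjusted p = 0.0551 to 0.173), and the P28 versus P14 call did not hold without P14 replicate 1, P14 replicate 2 or P28 replicate 2 (adjusted p = 0.126, 0.0547 and 0.0559). Egr1 stood at 47.6 ± 10.6 times Egr2 per kb at P1 and at 179 ± 37.0 times at P28 (SD, n = 3, no overlap, exact permutation p = 0.1, adjusted 0.157). Egr2 lies at chr10:67535475-67542188 on the plus strand.

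Nr4a1, an orphan nuclear receptor also called Nur77, fell 4.31-fold between P1 and P28. Nr4a1 stood at normalized counts of 2083, 1913 and 1351 at P1, 911, 987 and 952 at P7, 709, 678 and 1235 at P14, and 276, 445 and 545 at P28. The P7 libraries were close together, P14 replicate 3 lay above all of P7, and the P28 libraries were below all the rest. The change was −2.11 ± 0.28 for P28 versus P1 (adjusted p = 5.74e-05) and −1.05 ± 0.28 for P28 versus P14 (adjusted p = 0.0237), the latter lost without P14 replicate 3 or P28 replicate 1 (adjusted p = 0.108 and 0.0641). P7 versus P1 did not overlap but missed the threshold (−0.88 ± 0.28, adjusted p = 0.075). The gene lies at chr15:101254269-101274795 on the plus strand.

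Btg2, an antiproliferative gene induced by p53 and by growth signals, was called lower only at P28. Normalized counts of Btg2 were 1444, 1305 and 1317 at P1, 1056, 1082 and 1051 at P7, 1142, 880.1 and 1293 at P14, and 387, 573 and 682 at P28. The P7 libraries were almost level, and those of P28 were below all the others. The fall was −1.03 ± 0.22 from P14 to P28 (adjusted p = 0.007) and −1.34 ± 0.22 from P1 to P28 (adjusted p = 0.00028). In a limma fit of P14 and P28 alone the first of these did not pass (adjusted p = 0.0776). Neither P7 nor P14 overlapped P1, but P7 differed from P1 by only −0.35 ± 0.22 (adjusted p = 0.445). Btg2 lies at chr1:134075170-134079120 on the minus strand.

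Ier2, a small nuclear protein gene of a single exon (chr8:84661331-84662852, minus strand), had no called change, and 1 library decided its pattern. For Ier2 the normalized counts were 461, 374 and 299 at P1, 416, 298 and 321 at P7, 118, 195 and 263 at P14, and 213, 126 and 975 at P28. The P14 libraries were below those of P1 and P7, and P28 replicate 3 was above every other library while its group mates lay within the P14 range. The P28 versus P1 change was −0.32 (95% interval −1.53 to 0.88, adjusted p = 0.686) and turned to 0.24 with edgeR and 0.21 with DESeq2. Without P28 replicate 3 it was −1.18 and passed the test (adjusted p = 0.0266), and without P28 replicate 2 it was 0.29.

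From P14 to P28, 8 of the 10 genes were lower and 0 were higher in the fit of all 12 libraries, where 8.76% of the 15464 genes tested were called lower. The exceptions were Jun and Ier2. The count was 4 without P14 replicate 1 or P14 replicate 3, and 2 in a fit of those ages alone. With each pair of ages fitted alone, P7 versus P1 and P14 versus P7 held 4 calls each. The share of all genes called in the fits with fewer libraries is not given here, so these counts have no background. From P1 to P7, 2 genes were lower, Fos and Egr1, against 4.24% of genes called lower. From P7 to P14 Junb rose and Egr2 fell, against 10.8% of genes called higher and 10.0% called lower. From P1 to P28, 7 were lower, against 20.0% of genes, the others being Jun, Ier2 and Atf3. Fos, Egr1, Egr2 and Nr4a1 were lower at P14 than at P1, 4 of 10 against 9.99%, and 6 of 10 were lower at P28 than at P7, against 23.0%. Of these, the Nr4a1 call at P14 versus P1 was lost without P1 replicate 1, P1 replicate 2, P14 replicate 1 or P14 replicate 2 (adjusted p = 0.0753, 0.0507, 0.0635 and 0.0725), and the Fos call at P28 versus P7 without P7 replicate 1 or P7 replicate 3 (adjusted p = 0.064 and 0.0662). In P7 versus P1, P28 versus P14 and P28 versus P1, 0 of the 10 were called higher, by limma at an adjusted or an unadjusted p under 0.05, by edgeR or by DESeq2, where limma called 3.47%, 5.68% and 14.6% of genes higher. Over the 4 time points 7 of the 10 differed in limma's F test, against 43.8% of genes tested.

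Count models were also fitted to the recovered reads. For P7 versus P1, P14 versus P7, P28 versus P14 and P28 versus P1, edgeR called 2, 2, 6 and 7 of the 10, against 7.02%, 19.6%, 12.7% and 31.9% of genes in either direction. DESeq2 called 4, 3, 8 and 7, against 9.20%, 19.5%, 16.3% and 29.9%. At an unadjusted p under 0.05 with a log2 fold change over 0.75, 4 were called in P7 versus P1, against 14.2% of genes. The genes that DESeq2 and this threshold added to Fos and Egr1 in the first week were Egr2 and Nr4a1.

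The median change also differed by step. In the order P7 versus P1, P14 versus P7, P28 versus P14 and P28 versus P1, the median log2 change of the 10 genes was −0.54, −0.0035, −1.04 and −1.42, and that of all genes tested was 0.037, −0.086, −0.12 and −0.24. Libraries did not overlap for 6, 4, 7 and 7 of the 10, against 38.3%, 46.1%, 26.1% and 41.9% of all genes. The highest mean was at P1 for 6 genes, at P14 for 3 and at P28 for 1, and the lowest was at P28 for 8, at P7 for Jun and at P14 for Ier2. These comparisons share libraries, so they are not independent of one another.

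**Figure D3:**
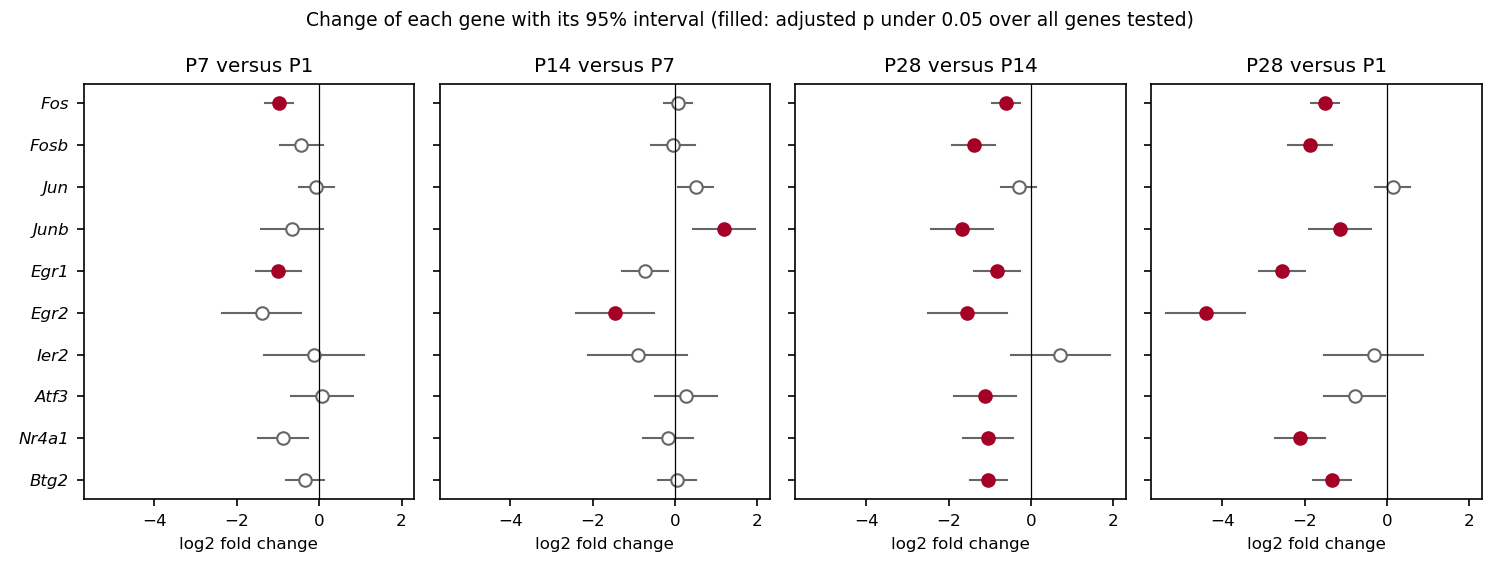
Log2 fold change (horizontal axis) of the 10 immediate early genes in P7 versus P1, P14 versus P7, P28 versus P14 and P28 versus P1, from one limma fit of the 12 libraries, with bars for 95% intervals. Filled points passed an adjusted p of 0.05 over all genes tested, which 2, 2, 8 and 7 genes did, and all of those were lower at the later age except Junb in P14 versus P7.

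In some libraries most of the 10 genes lay on the same side of the time point's mean. At P28, replicate 3 was above its time point's mean log2 value for 9 of the 10 genes, by 0.40 on average, with Atf3 as the exception. At P1, replicate 3 was below the mean for 9 genes, by 0.27 on average, and at P14 replicate 2 was below it for 8. P1 replicate 1 was above it for 9, P14 replicate 3 above it for 8 and P28 replicate 1 below it for 8. At P7 no library had more than 7 of 10 on one side. Each deviation is measured from a mean that the library helps to set, and the 3 libraries of a time point sum to 0. The share of all genes on each side in these libraries is not given here. A shift of the whole library therefore cannot be told apart from a shift of these genes.

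The residual SD on the log2 scale ranged from 0.18 for Fos to 0.84 for Ier2, with a median of 0.38 over the 10, against 0.55 over all genes tested and 0.36 over the 8622 genes with at least the mean log2 value of the lowest member. Ier2 alone was above the all-gene median, and 6 of the 10 were above the median of those 8622 genes. Without P28 replicate 3, the library with the highest IEG sum at P28, 8 of 10 IEGs were called lower at P28 than at P1. The share of all genes called lower in that fit is not given here. Leaving out the same library moved the log2 difference in summed RPM from −2.28 to −2.48.

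**Figure D4:**
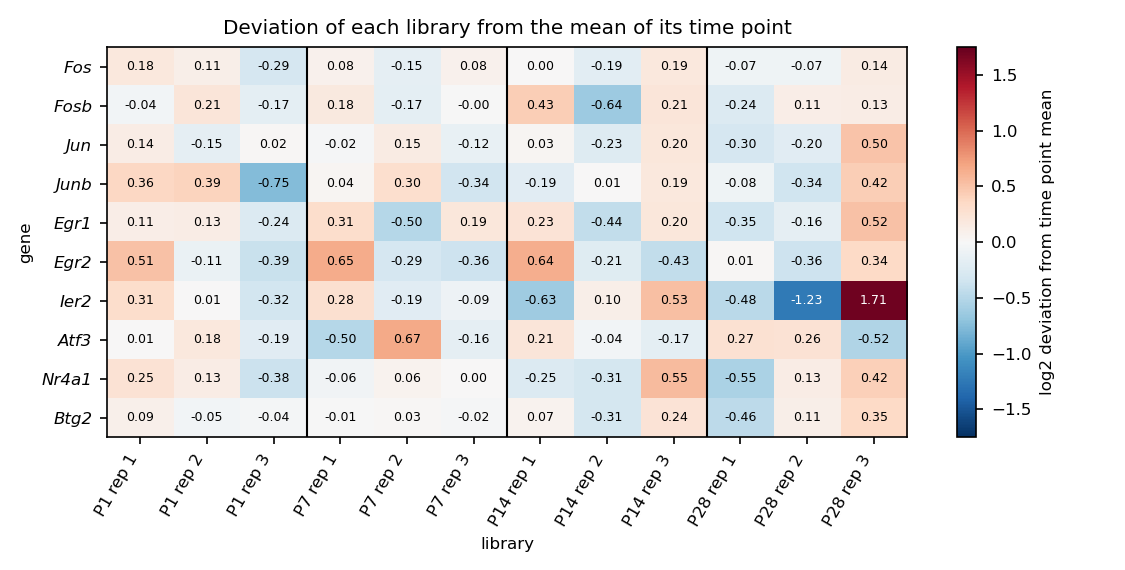
Deviation of each library (columns, 3 per time point) from the mean log2 value of its time point for the 10 immediate early genes (rows), coloured from blue (below) to red (above) with the value printed. P28 replicate 3 was above its mean for 9 genes, with Ier2 at 1.71, and P1 replicate 3 was below its mean for 9.

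Likeness to the set was measured as Pearson's r between a gene's log2 values and the mean of the 10 genes' standardized values over the 12 libraries, among 12047 genes. The 5 most alike were Foxb1 (0.959), Eef2kmt (0.956), Pcdh19 (0.937), Grm5 (0.935) and Flrt3 (0.928). Among the 10 themselves Btg2 (0.962), Nr4a1 (0.957) and Fosb (0.926) followed the mean most closely, and Jun (0.17) and Ier2 (0.31) least. Within time points, over deviations from the time point means, the 5 most alike were Rundc1 (0.946), Eif2ak2 (0.937), Trp53rka (0.926), Cadm2 (0.922) and Pim2 (0.913), and none of these was among the first 5. The libraries share depth and scaling with the genes compared, and the 10 genes contribute to the mean they are compared with. Deviations sum to 0 within each time point, so they carry fewer than 12 free values. The named genes are the highest of 12047, and how high r would be without any link was not tested.

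Of the other AP-1 partners, those that changed fell. Of 9 genes 7 were tested, and 3 were lower at P28 than at P1, against 20.0% of all genes tested, with 0 higher by limma, edgeR or DESeq2 and at an unadjusted p under 0.05. Fosl2, a FOS relative, went from 179 to 252 normalized counts at P1 to 66.0 to 90.6 at P28 (−1.50 ± 0.44, adjusted p = 0.0163). Maff, a small MAF factor, fell by 4.94 ± 1.01 on the log2 scale (adjusted p = 0.00183). Batf3, which pairs with JUN, had 42 to 101 reads at P1 and 0 in each P28 library, which is at least 9.83-fold lower against a floor of 3 reads per library. The list's highest in normalized count, Mafg and Jund, changed by 0.21 (adjusted p = 0.579) and −0.44 (adjusted p = 0.4). The list's median was −1.13, also with Batf3 at its bound, against −0.24 over all genes tested.

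Among relatives of the EGR and NR4A members, Egr3 and Nr4a3 fell, and the corepressors Nab1 and Nab2 rose. Egr3 was at 445 to 727 normalized counts at P1 and at 2.70 to 105 at P28, where 1 library held 2 reads (−4.99 ± 0.83, adjusted p = 0.00038), and Nr4a3, an orphan receptor like NR4A1, fell by 2.16 ± 0.39 on the log2 scale (adjusted p = 0.000728). Nab1 and Nab2, which bind EGR proteins and repress their activity, were higher at P28 than at P1 by 1.08 ± 0.27 and 1.13 ± 0.42 (adjusted p = 0.00699 and 0.0497). Nr4a2 changed by −0.64 (adjusted p = 0.228), and Egr4 by 0.67 (adjusted p = 0.644). Of the 6 genes, 2 were higher and 2 lower, against 14.6% and 20.0% of all genes tested, with a median of 0.012. Nab2 was lowest at P7, with 125 to 170.4 normalized counts, and rose 2.49 ± 0.42 from there to P14 (adjusted p = 0.00068).

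A wider list of 28 early response genes held calls in both directions. At P28, 9 of the 28 were lower than at P1 and 2 higher, against 20.0% and 14.6% of all genes tested, with a median of −0.56 against −0.24. Socs3, a feedback inhibitor of cytokine signalling, fell by 3.15 ± 0.37 on the log2 scale (adjusted p = 2.11e-05), and Sik1, a kinase induced by cAMP, fell by 2.35 ± 0.32 (adjusted p = 7.5e-05). The others that fell were Pim1, Klf4, Klf6, Klf10, Cyr61, Csrnp1 and Zfp36l1, with log2 changes from −4.01 for Pim1 to −0.55 for Zfp36l1. The 2 that rose were Rhob, a small GTPase (1.31 ± 0.21, adjusted p = 0.00028), and Gadd45g (1.32 ± 0.44, adjusted p = 0.0317). Zfp36l1 and Zfp36, which direct decay of short-lived mRNAs and had the highest normalized counts of the list, changed by −0.55 ± 0.18 (adjusted p = 0.033) and 0.11 ± 0.34 (adjusted p = 0.833). Zfp36l1 was lowest at P7 and P14 and had risen again by P28 (0.58 ± 0.18 against P14, adjusted p = 0.0474 in limma), while edgeR called 0 of the list higher in that step.

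Feedback phosphatases, neuronal activity genes and upstream factors were read at P28 versus P1 and at P14 versus P7. Medians of the related lists were also taken at P28 versus P14. They were −1.34 for the activity-regulated effectors, −1.02 for the AP-1 partners and −0.96 for the EGR and NR4A relatives, against −1.04 for the IEGs. Those of the 28 early response genes, phosphatases, upstream factors and heat shock genes were −0.39, −0.23, −0.041 and 0.47. Of the 9 effectors tested 8 were negative in that step, and 1 was called lower, against 8.76% of genes tested. Of 10 MAP kinase phosphatases 9 were tested, and at P28 Dusp7 was higher and Dusp10 lower than at P1, against 14.6% and 20.0% of all genes tested, with a median of −0.23. From P7 to P14, Dusp7 rose by 1.74 ± 0.21 and Dusp4 and Dusp10 fell, with changes of −3.47 ± 0.41 and −1.62 ± 0.40 (adjusted p = 4e-05, 3.7e-05 and 0.0094), against 10.8% of genes higher and 10.0% lower. Dusp1, which switches off MAP kinases and has the list's highest normalized count, was at 1509.9 to 2687 normalized counts at P1 and 1764 to 4708 at P28 (0.70 ± 0.31, adjusted p = 0.0934), and Dusp6 changed by −0.23 ± 0.21 (adjusted p = 0.436). Of the activity-regulated effectors 9 of 10 were tested, with a median of −0.37. One of these 9 was called at P28 versus P1, against 14.6% of all genes tested higher, namely Npas4, an activity-induced factor of neurons, which rose 3.12 ± 0.82 (adjusted p = 0.00906) and had its highest mean at P14, with 925 to 2788 normalized counts. Plk2 changed by −0.38 (adjusted p = 0.331), and 0 of the list were lower by limma, with 1 at an unadjusted p under 0.05, 0 by edgeR and 2 by DESeq2. From P7 to P14 3 of the 9 rose, Npas4 (2.70 ± 0.82, adjusted p = 0.0299), Arc (2.06 ± 0.67, adjusted p = 0.041) and Scg2 (0.99 ± 0.33, adjusted p = 0.0489), against 10.8% of genes called higher, and edgeR called 2 of the list higher. Of 21 upstream factors and kinases 1 was called at P28 versus P1, Map2k1, which rose 0.82 ± 0.21 (adjusted p = 0.00879), against the same 14.6%, and the median was −0.095. By limma 0 were lower, with 2 at an unadjusted p under 0.05 and 0 by edgeR or DESeq2. From P7 to P14 3 of the 21 were higher and 3 lower, against 10.8% and 10.0% of genes, and edgeR called 3 higher and 2 lower. Srf, the factor that binds the CArG box, was among those that fell then (−1.41 ± 0.47, adjusted p = 0.048), and between P1 and P28 it changed by −1.15 ± 0.47 (adjusted p = 0.0733) and Mkl2, a coactivator of SRF with the list's highest normalized count, by −0.39 (adjusted p = 0.231).

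Heat shock genes, which respond to protein damage and also to handling of cells, held calls in the opposite direction. At P28, 5 of 12 were higher than at P1, against 14.6% of all genes tested, and 0 lower, against 20.0%, by limma, edgeR and DESeq2 alike, with 0 lower at an unadjusted p under 0.05 and a median of 0.56. The inducible pair Hspa1a and Hspa1b was at 114 to 214 and 38.8 to 85.0 normalized counts at P1 and at 753 to 1190.0 and 368 to 501 at P28 (2.68 ± 0.37 and 2.86 ± 0.46, adjusted p = 8.33e-05 and 0.000281). The pair is near-identical in sequence and its reads may be divided between the copies in a way that the deposited values do not show. Hspa8, Hsph1 and Hsp90aa1 also rose, and Hsp90ab1 changed by −0.16 (adjusted p = 0.422). The summed level of the 12 was 5141 to 5886 RPM at P1 and 5037 to 5409 at P28, so it did not rise with the called genes.

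**Figure D5:**
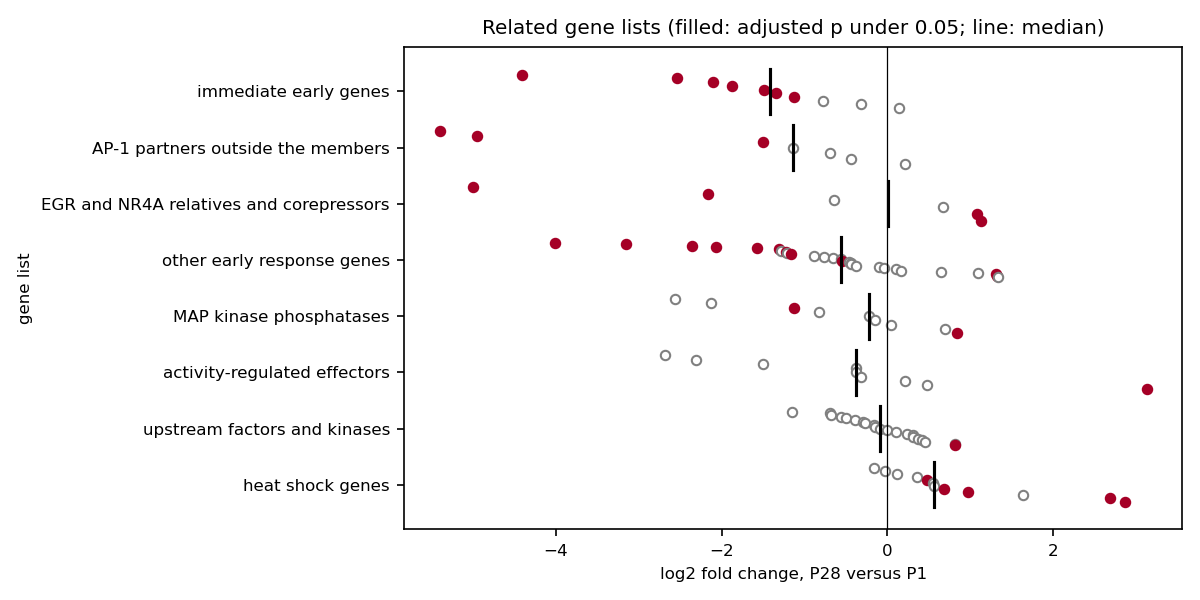
Log2 fold change, P28 versus P1 (horizontal axis), of each tested gene of the immediate early genes and of 7 related lists (vertical axis), with filled points for an adjusted p under 0.05 and a black line for the median. Medians ran from −1.42 for the immediate early genes to 0.56 for the heat shock genes.

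Markers of other cells moved with age in the same libraries. Oligodendrocyte lineage markers (8 genes) summed to 669 to 974 RPM at P1 and 2442 to 3659 at P7, then 28988 to 34509 at P14, and by P28 7385 to 11199, so they were highest at P14. The granule neuron, microglia, and endothelial and pericyte sums also had their highest means at P14, as did Junb, Jun and Atf3. Granule neuron markers (8 genes, with Atoh1 at 0 reads in each P14 and P28 library) went from 199 to 313 at P1 to 907 to 1777 at P14 and 444 to 544 at P28. Microglia markers (11 genes) summed to 119 to 225, 197 to 304, 275 to 447 and 173 to 254 at the 4 ages. Of the 11, 1 was called higher at P28 than at P1 and 0 lower, against 14.6% and 20.0% of all genes tested, though Tmem119, Aif1 and Tyrobp were at 0 reads in at least 1 P28 library. Endothelial and pericyte markers (10 genes) ranged from 335 to 1044, 457 to 1619, 868 to 966 and 460 to 577 at these ages, and Purkinje cell markers (5 genes) from 109 to 145 at P1 and 130 to 346 at P28. None of these 5 sums fell over all the steps as the IEG sum did, but single markers did not all follow their sum. The granule neuron and oligodendrocyte lineage lists each held 5 genes called higher at P28 than at P1 and 3 called lower. These calls stood against 14.6% and 20.0% of all genes tested. The part of these cells in the result was not tested. Of the 9 astrocyte markers 8 were higher at P28 than at P1 and 1, Aldh1l1, was lower.

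Depth ranged from 6399499 reads on genes in P7 replicate 2 to 14733985 in P1 replicate 1. A floor of 3 reads corresponded to 1.85 to 4.38 normalized counts, and each of the 10 genes was above it in each library, with Egr2 at P28 the nearest. The floor covers counting error only, and molecular identifiers are not mentioned in the sources used here.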

How the data were processed

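RNA of GFP+ cells sorted from dissociated cerebellum (about 10 ng per library, Trio RNASeq kit) was sequenced in 12 libraries. Per the submitters' processing notes and methods, the authors aligned reads with STAR (2.5.0a) to mm10, counted them with GenomicAlignments on UCSC transcripts and normalized with DESeq2. Use of strand and of reads with several matches is not given in the sources used here. The deposited values are a signal, namely the counts divided by the authors by 1 size factor per library. Whole reads were recovered for 100% of values (tolerance 0.01), and 0 columns were left unmapped. All column names carry P28, so time points rest on the sample labels.

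limma (3.58.1, R 4.3.3) was fitted to log2(normalized count + 1), so fold changes of low genes are understated, over all 12 libraries with a variance trend, for the 15464 genes that reached 10 in 3 or more libraries. The call was a Benjamini-Hochberg adjusted p under 0.05 over all genes tested. The IEGs and gene lists were chosen with earlier results of these data known. All 10 IEGs were named, and from each list the 2 most abundant genes and those needed where 5 or fewer were called. One gene that this rule names is not reported here. The other early response genes that were called exceed 5 and were named after their values were seen, as were Srf, Egr4, Dusp4, Arc, Scg2 and the single cell type markers. In a simulation of P7 versus P1 with a log2 change of 2 and the same dispersion for all genes, limma called 171 of 198 changed genes and 6 unchanged ones among 15243. That change is larger than any of the 10 IEGs had between neighbouring ages, so it cannot tell how many changes of their size would be missed. RPM were computed from recovered reads per library. Ratio tests were exact two-sided permutations. Alternatives were edgeR (4.0.16, quasi-likelihood, TMM, 15575 genes) and DESeq2 (1.42.0, 20205 genes) on recovered reads, pseudocounts of 0.5 and 5, no filter or at least 10 in every library, scaling by library totals or TMM, a fit of the compared ages alone, a block for the replicate number, an unadjusted p under 0.05 with a log2 fold change over 0.75, and each library left out. Exon lengths and gene positions came from GENCODE M21 (GRCm38, the build of mm10), and promoters from RefSeq. No pair of libraries agreed within sampling noise.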

Additional observations from a re-analysis of the deposited data

How the results depend on the processing

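The number of immediate early genes called in P7 versus P1 was 2 and became 4 with DESeq2, with only the 2 time points in the fit, and at an unadjusted p under 0.05 with a log2 fold change over 0.75. With only the 2 time points it was 4 in P14 versus P7 (2 in the report) and 2 in P28 versus P14 (8 in the report), a fit with fewer libraries to estimate the spread. Leaving out each library gave 1 to 4 genes in P7 versus P1, 0 to 4 in P14 versus P7 (0 without P7 replicate 1, P7 replicate 3, P14 replicate 2 or P14 replicate 3, and 4 without P28 replicate 3), 4 to 8 in P28 versus P14 (4 without P14 replicate 1 or P14 replicate 3) and 6 to 8 in P28 versus P1. In P7 versus P1, 1 was left without P1 replicate 1, P1 replicate 2, P7 replicate 2 or P7 replicate 3, and 4 were called without P28 replicate 3. Shares of all genes called are not given for the fits with fewer libraries or with the replicate block, so their counts have no background here. P28 versus P1 had 6 to 8 genes under every alternative run, and each of these was lower at P28. The log2 difference in the summed level, P28 versus P1, was −2.28 in RPM and −1.85 in normalized counts.

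Scaling by library totals turned Fos and Btg2 in P14 versus P7 (−0.18 and −0.22) and Jun in P28 versus P1 and P28 versus P7 (−0.30 and −0.29). Fosb in P14 versus P7 turned with edgeR (0.044) and DESeq2 (0.016), and Ier2 turned in P28 versus P1 (0.24 and 0.21) and in P28 versus P7 (0.36 and 0.34). Without 1 library, signs turned within these ranges: in P7 versus P1, Jun −0.14 to 0.0013, Ier2 −0.28 to 0.029 and Atf3 −0.27 to 0.32; in P14 versus P7, Fos −0.016 to 0.17, Fosb −0.26 to 0.27 and Btg2 −0.085 to 0.19; and Ier2 −0.15 to 1.32 in P28 versus P14. In P28 versus P1, Jun ranged from −0.11 to 0.29 and Ier2 from −1.18 to 0.29, and in P28 versus P7 from −0.049 to 0.35 and from −1.05 to 0.42. The cause was not tested. None of these changes was called in the report, and without P28 replicate 3 Ier2 was called in P28 versus P1 and P28 versus P7.

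Correlations between the deviations of same-numbered libraries were small (−0.029 to 0.139 over the 4 comparisons) and not all over 0.1 in any comparison, and P7 replicate 1 and P1 replicate 1 correlated less than libraries numbered 1 and 3 (0.041 against 0.054), so the numbers were not taken as pairs. Same-numbered correlations were all positive in P7 versus P1 (0.041 to 0.139), P28 versus P14 (0.014 to 0.044) and P28 versus P1 (0.011 to 0.035). With the replicate block the counts were 2, 3, 8 and 7, the gain being Egr1 in P14 versus P7, and 7 in the F test. The 95% interval of Ier2 in P28 versus P1 (−1.53 to 0.88) shows how large a change could be missed for the most variable gene.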
